A study of Arabidopsis thaliana with 14 samples.

Results

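The transcripts of 7 Arabidopsis thaliana genes for RNA-binding proteins linked to cold were followed: the cold shock domain genes CSP1 (AT4G36020), CSP2 (AT4G38680), CSP3 (AT2G17870) and CSP4 (AT2G21060), and the glycine-rich RNA-binding genes GRP7 (AT2G21660), GRP8 (AT4G39260) and RZ-1A (AT3G26420). They were chosen by their gene codes, and all 7 were found among the 27861 genes of the deposited expression table. RNA-seq had been done on whole vegetative rosettes of the wild-type accession Col-0, raised for 28 d at 20 °C in days of 10 h of light at 100 to 110 µmol of quanta per m2 and s. Control plants (C) had no earlier cold. Primed plants (P) had spent 24 h at 4 °C and then 5 d at 20 °C. Both kinds were taken before a trigger (C0, P0), in the cold at 4 °C (C30C to P120C) or in high light, 800 µmol of quanta per m2 and s (C30L to P120L), and the triggers had lasted 30, 60 or 120 min. Each of the 14 conditions is 1 library from the pooled rosettes of at least 5 plants, so that no replicate exists, no test between plants was possible and no p-value is given.

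Levels are given as FPKM, fragments scaled to transcript length and to the mapped fragments of the library, which allows genes to be compared per length. All 7 genes were among the 15001 analysed genes, which are the genes that reached 0.5 FPKM in both untriggered libraries and averaged 2 FPKM or more. A gene is said to have risen or fallen where 2 libraries differed by more than 1.5-fold (0.58 on the log2 scale), the threshold of the study. Beside the ratios stand 95% counting intervals, which rest on fragment numbers estimated from the table and cover counting error only, not the spread between plants. They may be too wide, because fragments were estimated from coding lengths, without the untranslated parts of the transcripts. Estimated depth ran from 29.3 M to 46.2 M fragments per library, and the median gene of a library lay between -0.12 and 0.00 on the log2 scale from C0. The 3 leaf markers (RBCS1A, LHCB1.3 and CA1) summed to 38790 to 50230 FPKM in every library. The 4 flower markers summed to 0.96 to 2.71 FPKM and the 3 root markers to 0.13 to 1.24 FPKM. In such pooled tissue, fewer cells of a type and less RNA per cell cannot be told apart.

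Cold shock domain proteins take their name from the bacterial cold shock proteins, small RNA chaperones that melt the secondary structures into which RNA folds at low temperature. The plant proteins carry 1 such domain at the start of the chain, followed by glycine-rich stretches and zinc knuckles, short motifs of cysteine and histidine that bind a zinc ion. GRP7 and GRP8 join an RNA recognition motif to a glycine-rich tail. Both are outputs of the circadian clock, bind their own and each other's transcripts and in this way shift splicing towards forms that are degraded. RZ-1A joins an RNA recognition motif to a zinc knuckle, and all these proteins have been studied as helpers of RNA function in the cold.

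The genes fall into pairs by their predicted proteins. CSP1 and CSP3 encode 299 and 301 residues with 7 zinc knuckles each, and were 63.5% identical. CSP2 and CSP4 encode 203 and 201 residues with 2 knuckles each, and were 77% identical. GRP7 and GRP8 encode 176 and 169 residues without a knuckle, and were 75.8% identical, while RZ-1A encodes 245 residues with 1 knuckle. Glycine made up 40.4% of CSP2, 39.8% of GRP7, 38.5% of GRP8 and 36.8% of CSP4, but 29.2% of CSP3, 23.1% of CSP1 and 17.6% of RZ-1A. The longest stretch of identical coding sequence was 39 bases between GRP7 and GRP8, 23 bases between CSP2 and CSP4 and 22 bases between CSP1 and CSP3, each shorter than a sequencing read. How reads shared by a pair were divided was not tested.

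**Figure D1:**
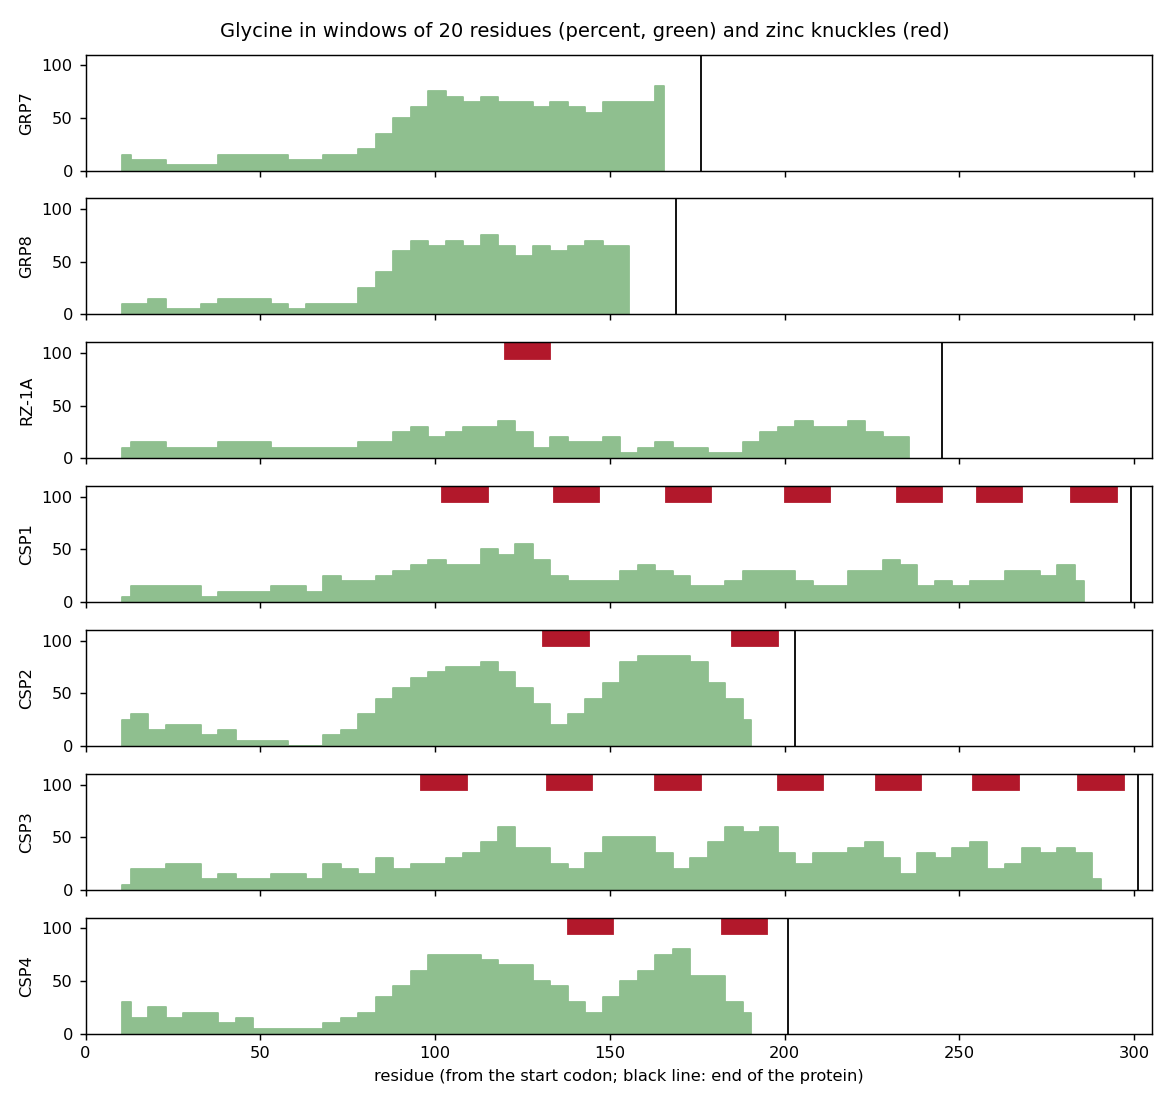
Glycine content and zinc knuckles along the 7 predicted proteins: the horizontal axis is the residue counted from the start, the green area the percentage of glycine in windows of 20 residues (vertical axis, 0 to 100%), red blocks are zinc knuckles and the black line is the end of the protein. The glycine of GRP7 and GRP8 lies in 1 tail, that of CSP2 and CSP4 in stretches split by a knuckle, and CSP1 and CSP3 carry 7 knuckles each.

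In the TAIR10.1 annotation, CSP1 lies at chr4:17042769-17044599, CSP2 at chr4:18071449-18073182, CSP3 at chr2:7763528-7765276, CSP4 at chr2:9036766-9037782, GRP7 at chr2:9265084-9266557 and GRP8 at chr4:18273829-18275216, all on the minus strand. RZ-1A lies on the plus strand at chr3:9671517-9676005. Its gene model overlaps that of AT3G26430 on the same strand by 4411 bases, so that reads of both genes could have been mixed and the RZ-1A values are uncertain. AT3G26430 stood at 14.8 to 20.6 FPKM. The model of CSP2 overlaps AT4G38670, at 2.55 to 5.73 FPKM, by 82 bases.

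The promoters of GRP7 and GRP8 are shown because both genes are clock outputs and gave the strongest responses below. Printed are the 250 bases before each gene start (TAIR10.1, minus strand, 5′ to 3′), read from the RefSeq genome, with capitals marking the evening element AAAATATCT on either strand (AGATATTTT when it lies on the opposite strand), a motif through which morning clock proteins act on genes of the evening.
GRP7, chr2:9266558-9266807: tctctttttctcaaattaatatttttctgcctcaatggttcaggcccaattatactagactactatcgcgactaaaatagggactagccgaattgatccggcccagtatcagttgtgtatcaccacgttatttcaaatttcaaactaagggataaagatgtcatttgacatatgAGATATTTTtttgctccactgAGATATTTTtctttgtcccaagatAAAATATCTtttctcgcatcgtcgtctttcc
GRP8, chr4:18275217-18275466: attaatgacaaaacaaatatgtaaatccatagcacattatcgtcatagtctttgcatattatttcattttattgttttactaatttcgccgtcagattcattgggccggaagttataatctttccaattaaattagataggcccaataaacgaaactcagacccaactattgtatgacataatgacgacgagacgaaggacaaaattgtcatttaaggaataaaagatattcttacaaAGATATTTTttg

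GRP7 held 3 evening elements, whose upstream ends lay at positions -76, -55 and -31 from the gene start, and GRP8 held 1, at -12. Among 27443 promoter windows of this length, 648 (2.36%) held the motif, and 3 held it 3 times. The windows of the other 5 genes held none. CSP1 held 1 CCA1-binding site (AAAAATCT, found in 6.69% of all windows), and CSP3 held 1 G-box (CACGTG, 6.49%). No window of the 7 genes held the C-repeat core CCGAC (12% of all windows), which is bound by the CBF cold regulators, or the heat shock element (0.386%). The windows of CSP2 (chromosome 4) and CSP4 (chromosome 2) shared a run of 16 bases, ccccaaccgtccagat, with upstream ends at positions -213 and -238 and found in only these 2 of all windows. Both strands were searched for each motif. A match is a run of letters and not a shown binding site.

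Before a trigger, C0 plants held 51.7 FPKM of GRP8, 48.0 of CSP2, 14.8 of CSP1, 13.5 of CSP3, 13.2 of GRP7, 6.05 of RZ-1A and 3.64 of CSP4. GRP8 and CSP2 lay close together, with counting SDs of 3.87% and 3.59%, and so did CSP1, CSP3 and GRP7, with counting SDs of 5.18%, 5.41% and 7.46%. CSP2 accounted for 60.1% of the summed level of the 4 cold shock domain genes in C0. Its close relative CSP4, at an estimated 58 fragments, was the least abundant of the 7 genes in each of the 14 libraries.

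Priming left no change past 1.5-fold in the 7 genes at the end of the 5 d at 20 °C. In P0, GRP8 stood at 46.1 FPKM, CSP2 at 49.2, CSP1 at 14.2, CSP3 at 14.1, GRP7 at 13.4, RZ-1A at 6.97 and CSP4 at 4.17. Among all analysed genes, 3.1% passed the threshold in P0/C0. The ratios of the 7 genes ran from 0.893 for GRP8 (95% counting interval 0.805 to 0.990) to 1.15 for RZ-1A (0.914 to 1.46). As estimated, only the interval of GRP8 left out 1. That of RZ-1A may be much too wide, since its coding length is 738 bases and its transcript 3033 bases.

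**Figure D2:**
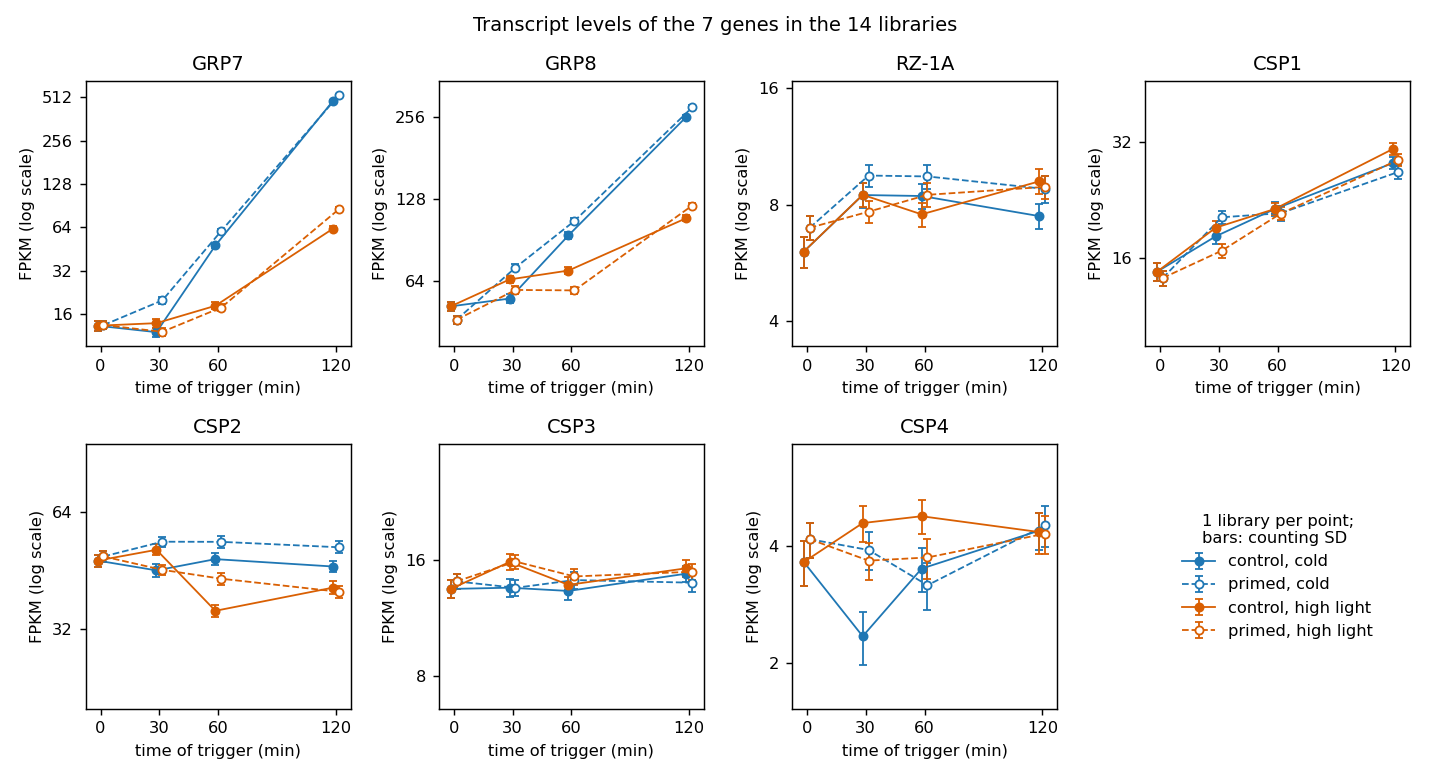
Transcript levels of the 7 genes: time of the trigger (min, horizontal) against FPKM (vertical, log scale with a range of its own in each panel), blue for cold and orange for high light, filled points and solid lines for control plants, open points and dashed lines for primed plants, and bars for the counting SD of each library. GRP7 rose from 13.2 to 485 FPKM in control plants in the cold but to 62.7 FPKM in high light, CSP1 rose along almost the same course under both triggers, and CSP3 stayed between 13.3 and 15.8 FPKM.

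The cold response of control plants (C/C0) was led by GRP7 and GRP8. GRP7 held 13.2 FPKM in C0, 11.9 in C30C, 47.8 in C60C and 485 in C120C. Its level was thus close to the start at 30 min and rose between 30 and 120 min, by 2.00 on the log2 scale from C30C to C60C and by 3.34 from C60C to C120C. C120C/C0 was 36.6 (5.20 on the log2 scale, counting interval of the ratio 31.6 to 42.7), rank 9 from the top of the 15001 analysed genes. GRP8 held 51.7 FPKM in C0, 55.2 in C30C, 94.2 in C60C and 257 in C120C. It rose 1.82-fold by 60 min (1.66 to 2.01) and 4.97-fold by 120 min (4.57 to 5.40, rank 140). The rise of GRP7 was the steeper, although GRP8 was the more abundant at the start.

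CSP1 was the third gene that rose in the cold, and did so gradually. It held 14.8 FPKM in C0, 18.2 in C30C, 21.4 in C60C and 28.1 in C120C. As deposited, it passed the threshold at 120 min only, at 1.91-fold of C0 (1.69 to 2.16). With each library scaled by 8 reference genes of the study or by the median ratio of all analysed genes to C0, it passed at 60 min as well (log2 0.61 and 0.60, beside 0.54 as deposited). CSP4 fell at 30 min and not later, with 3.64 FPKM in C0, 2.34 in C30C, 3.50 in C60C and 4.39 in C120C. C30C/C0 was 0.643 (log2 -0.64, interval 0.423 to 0.989) and rested on an estimated 40 fragments in C30C, the fewest of any value here. This call is lost with a pseudocount of 1 FPKM (log2 -0.47) and under both scalings (-0.55 with the reference genes and -0.52 with the median ratio).

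CSP2, CSP3 and RZ-1A did not pass the threshold in the cold in control plants. CSP2 stayed between 45.3 and 48.4 FPKM in C0, C30C, C60C and C120C, and CSP3 between 13.3 and 14.7 FPKM. RZ-1A held 6.05 FPKM in C0, 8.47 in C30C, 8.42 in C60C and 7.47 in C120C, with log2 ratios of 0.49, 0.48 and 0.30. Scaled by the median ratio, C30C/C0 of RZ-1A was 0.60, past the threshold. Thus 1 of the 7 genes passed 1.5-fold at 30 min (background 9.41% of all analysed genes), 2 at 60 min (10.8%) and 3 at 120 min (16.9%). The median log2 ratio of the 7 genes was 0.01, 0.48 and 0.30 at 30, 60 and 120 min, beside -0.12, -0.06 and -0.09 over all analysed genes. Untriggered plants were taken at the start only, so that in C/C0 and P/P0 the trigger and the time of day cannot be told apart.

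In primed plants, GRP7, GRP8 and CSP1 rose in the cold against their own start (P/P0). GRP7 held 13.4 FPKM in P0, 19.9 in P30C, 60.3 in P60C and 532 in P120C, where P120C/P0 was 39.8 (35.1 to 45.3, rank 6). GRP8 held 46.1 FPKM in P0, 71.7 in P30C, 106 in P60C and 278 in P120C, and had risen 1.56-fold at 30 min (1.42 to 1.70), where control plants stood at 1.07 (0.961 to 1.19). It reached 6.03-fold at 120 min. CSP1 held 14.2 FPKM in P0, 20.4 in P30C, 20.9 in P60C and 26.7 in P120C, and rose 1.88-fold by 120 min (1.67 to 2.12). The counts past the threshold were 1, 2 and 3 of 7 genes, beside 7.8%, 11.8% and 18.5% of all analysed genes. CSP4 did not pass the threshold in primed plants at 30 min, at 4.17 FPKM in P0 and 3.91 in P30C (ratio 0.938, 0.687 to 1.28). Whether the responses of primed and control plants differ was not tested.

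In high light, GRP7, GRP8, CSP1 and RZ-1A rose in control plants, all at 120 min, with smaller ratios than in the cold for GRP7 and GRP8. GRP7 held 13.8 FPKM in C30L, 18.2 in C60L and 62.7 in C120L, and passed the threshold at 120 min only, at 4.74-fold of C0 (4.03 to 5.59). GRP8 held 64.9 FPKM in C30L, 69.9 in C60L and 109 in C120L, the last 2.11-fold of C0 (1.92 to 2.32). CSP1 held 19.2 FPKM in C30L, 21.4 in C60L and 30.6 in C120L, the last 2.07-fold of C0 (1.83 to 2.35). RZ-1A stood at 8.48, 7.55 and 9.19 FPKM, and passed the threshold at 120 min by a narrow margin, at 1.52-fold (1.202 to 1.92). This call rests on C0, the lowest of the 14 libraries for RZ-1A at 6.05 FPKM, while the other 13 lay between 6.97 and 9.51 FPKM. It is lost with a pseudocount of 1 FPKM (log2 0.53) and under scaling by the 8 reference genes (0.49). None of the 7 genes passed the threshold at 30 min (10.9% of all analysed genes) or 60 min (20.7%), and 4 did at 120 min (30.3%).

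CSP2 held 51.2 FPKM in C30L, 35.6 in C60L and 40.9 in C120L, and its lowest ratio to C0 was 0.742 at 60 min (0.670 to 0.822), within the threshold. CSP3 stood at 15.8, 13.8 and 15.2 FPKM and CSP4 at 4.59, 4.78 and 4.35 FPKM at these times. Together, the 4 cold shock domain genes summed to 79.9 FPKM in C0 and to 91.1 FPKM in C120L, but the share of CSP1 in this sum was 18.5% in C0 and 33.6% in C120L, and that of CSP2 60.1% and 44.9%. The shares moved the same way in the cold: in C120C the sum was 93.6 FPKM, with 30.05% from CSP1 and 49.5% from CSP2. In primed plants, GRP7 held 12.01 FPKM in P30L, 17.7 in P60L and 85.6 in P120L, GRP8 59.3, 59.1 and 121 FPKM, and CSP1 16.7, 20.9 and 28.7 FPKM. These 3 genes alone of the 7 passed the threshold at 120 min, at 6.41-fold, 2.63-fold and 2.02-fold of P0 (25.8% of all analysed genes), and none did at 30 min (15.2%) or 60 min (21.2%).

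**Figure D3:**
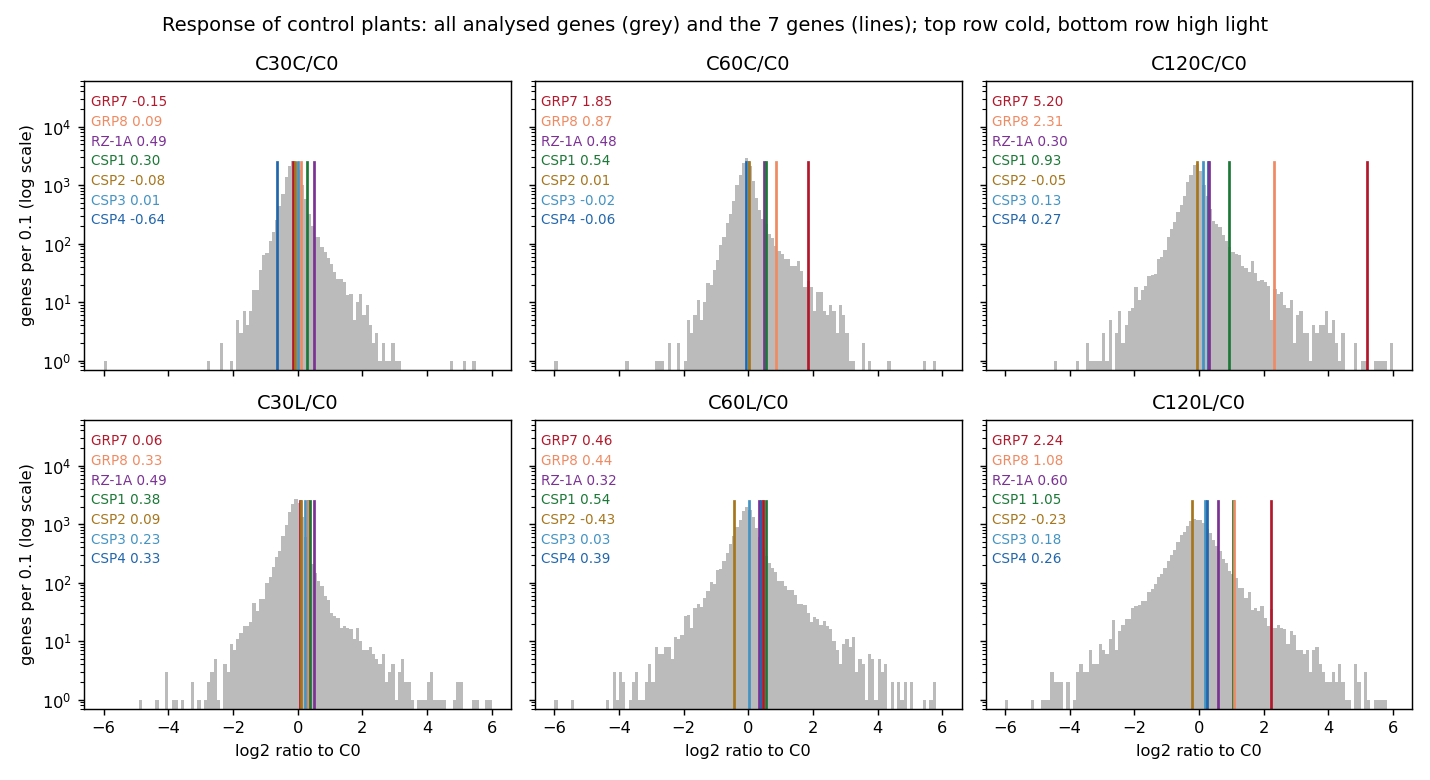
Response of control plants: log2 ratio to C0 (horizontal) for the 15001 analysed genes (grey histogram, genes per 0.1 on a log scale; genes beyond 6 are drawn at 6, and genes at 0 in the triggered library are left out), with a coloured line and the value for each of the 7 genes. GRP7 lies in the far right tail at 120 min of cold (5.20) and nearer the centre at 120 min of high light (2.24), where the distribution itself is wider.

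Cold and high light were also compared at the same time of day, which leaves C0 out of the ratio. GRP7 stood higher in cold than in light at 60 min (C60C/C60L 2.63, 2.30 to 3.01) and at 120 min (C120C/C120L 7.73, 7.20 to 8.31). In primed plants, it stood higher already at 30 min (P30C/P30L 1.65, 1.40 to 1.96), and then 3.41-fold at 60 min and 6.21-fold at 120 min. GRP8 stood 2.36-fold higher in cold at 120 min in control plants (2.22 to 2.51), and in primed plants 1.80-fold at 60 min and 2.29-fold at 120 min.

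CSP1 did not pass the threshold between the triggers at any time. P30C/P30L was 1.22 (1.09 to 1.36), C30C/C30L 0.9499 (0.840 to 1.08), C60C/C60L 1.00 (0.893 to 1.12), C120C/C120L 0.920 (0.832 to 1.02) P60C/P60L 1.00 (0.891 to 1.13) and P120C/P120L 0.931 (0.838 to 1.03), intervals that cover counting error only. CSP4 was lower in cold at 30 min in control plants (C30C/C30L 0.510, 0.345 to 0.760), again through the C30C library, and P30C/P30L was 1.07. CSP2 was 1.36-fold higher in cold than in light at 60 min (1.23 to 1.51) and 0.38 on the log2 scale in P120C/P120L, both within the threshold, but past it under scaling by the 8 reference genes (log2 0.59 each). In control plants 1, 1 and 2 of the 7 genes passed the threshold at 30, 60 and 120 min, beside 13%, 17.6% and 28.4% of all analysed genes. In primed plants 1, 2 and 2 passed it, beside 14.4%, 20.3% and 25.8%.

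GRP7 and GRP8 changed order in the cold. GRP8 exceeded GRP7 by 3.90-fold in C0 and by 4.62-fold in C30C. GRP7/GRP8 was 0.508 in C60C, 1.89 in C120C and 1.91 in P120C, so that GRP7 was the more abundant in these last libraries. In high light GRP8 remained the more abundant, with a ratio of 0.576 in C120L and 0.706 in P120L. The sum of both was 64.9 FPKM in C0, 741 in C120C, 810 in P120C and 172 in C120L. These are levels of whole genes, with 2 annotated transcripts for GRP7 and 4 for GRP8. How the transcript forms shared each level was not tested.

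**Figure D4:**
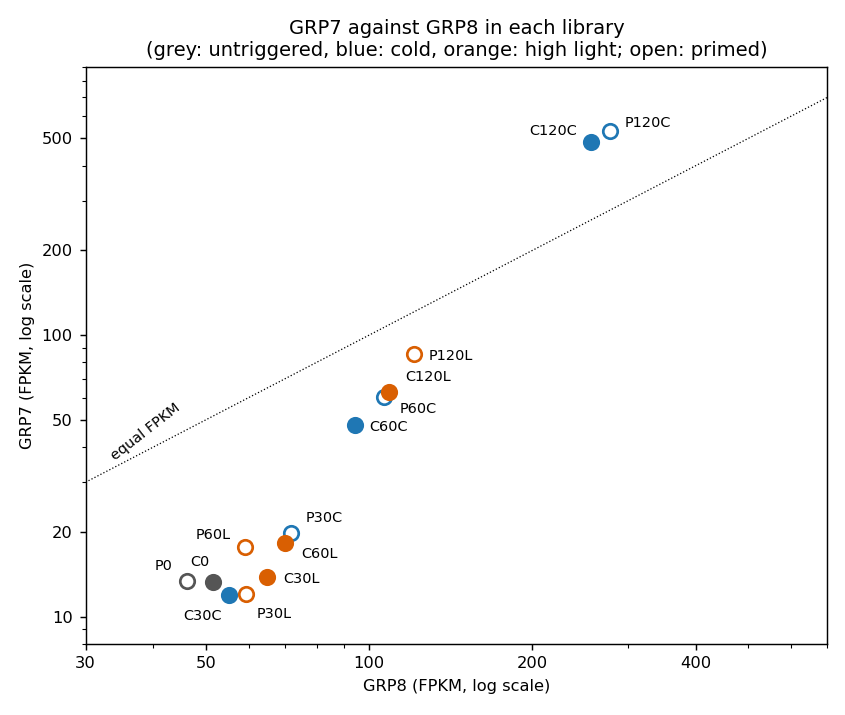
GRP7 against GRP8 in the 14 libraries (FPKM, both axes on a log scale), grey for untriggered, blue for cold and orange for high light, filled for control and open for primed plants, with a dotted line of equal FPKM. C120C and P120C are the 2 libraries above the line, at 485 and 532 FPKM of GRP7.

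The main question of the study was whether primed plants differ from control plants under the same trigger at the same time (P/C). For these genes 2 of the 42 ratios passed the threshold, and both came from 30 min of cold. Of all analysed genes, 2.18% to 6.36% passed it in the same comparisons. GRP7 was 1.66-fold higher in P30C (19.9 FPKM) than in C30C (11.9 FPKM; 1.38 to 2.01), and CSP4 1.67-fold higher (3.91 and 2.34 FPKM; 1.12 to 2.48). These 2 of 7 genes stand beside 4.17% of all analysed genes at this time. GRP8 was at 0.38 on the log2 scale (0.25 to 0.51), CSP2 at 1.19-fold (1.08 to 1.302), and CSP1, CSP3 and RZ-1A at 1.12, 0.999 and 1.12. For CSP4 the ratio again turns on the low value of C30C, since P30C lay within the 3.17 to 4.78 FPKM of the other libraries. With 1 FPKM added to both values it was 0.56 on the log2 scale, and from each group's own start 0.54, both within the threshold, while GRP7 stood at 0.69 and 0.72. For GRP7, too, C30C was the lowest of the 14 libraries, and its P30C/P0 was 1.49, within the threshold. Of all analysed genes, 3.17% were higher and 1% lower in P30C/C30C.

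The lead of primed plants in GRP7 was smaller at the later times in the cold, at 1.26-fold at 60 min (1.14 to 1.40) and 1.10-fold at 120 min (1.06 to 1.13). The same ratios were 1.13 and 1.08 for GRP8. In high light, P/C of GRP7 was 0.871 at 30 min (0.722 to 1.05), 0.973 at 60 min (0.826 to 1.14) and 1.37 at 120 min (1.25 to 1.49), the last at 0.45 on the log2 scale. None of the 7 genes passed the threshold at 60 and 120 min of cold (4.83% and 2.18% of all analysed genes) or at 30, 60 and 120 min of light (3.45%, 6.21% and 6.36%). Of the 42 ratios, 35 lay within 0.3 of 0 on the log2 scale, and the 40 that did not pass ran from -0.35 to 0.45. Over all analysed genes, the standard deviation of log2 P/C was 0.24 to 0.36 in these comparisons. Their share within 0.3 was not computed, so that the narrow range is not shown to be particular to the 7 genes. CSP3 had the narrowest range, -0.08 to 0.09, and its counting interval included 1 in all 6 comparisons, as did that of RZ-1A. These intervals rest on coding lengths and may be too wide, for RZ-1A above all, so that no lack of difference is read from them. Whether the differences in GRP7 and CSP4 exceed the spread between plants was not tested, since each side is 1 pool.

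**Figure D5:**
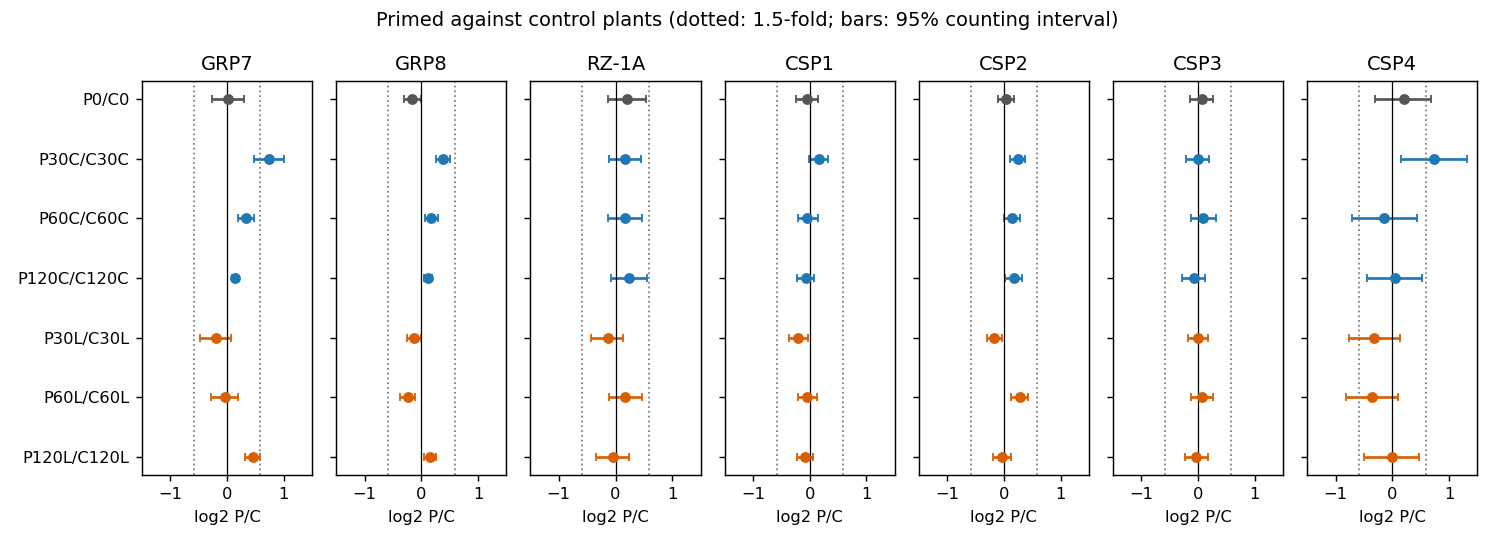
Primed against control plants: log2 P/C (horizontal) of the 7 genes in P0/C0 (grey), 3 times of cold (blue) and 3 times of high light (orange), with 95% counting intervals as bars and dotted lines at 1.5-fold. GRP7 and CSP4 at 30 min of cold (0.73 and 0.74) are the points past the dotted lines, and the interval of CSP4 is the widest.

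Over the 14 libraries, GRP7 spanned 11.9 to 532 FPKM, a 44.5-fold range, with a coefficient of variation of 176% (rank 18 of the 15001 analysed genes). GRP8 spanned 46.1 to 278 FPKM with 71.3% (rank 525). CSP1 varied by 23.9%, CSP4 by 16.7%, RZ-1A by 12% and CSP2 by 11.6%, beside a median of 15.4% over the analysed genes. CSP3 varied by 5.89%, and 4.06% of the analysed genes varied less. The log2 levels of GRP7 and GRP8 followed each other (Pearson r = 0.99 over 14 libraries), and those of CSP1 went with GRP8 (0.80) and GRP7 (0.77), while CSP2 and CSP1 gave -0.30. These values describe 14 single libraries that share their triggers and times, and carry no p-value.

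The genes whose levels were most like GRP7 over the 14 libraries were AT1G19370, annotated as a membrane protein (r = 0.997), GRP8 (0.989), the TCP2 transcription factor (0.985), the protein phosphatase 2C gene AT5G27930 and the non-coding AT1G69140 (0.983 each). AT1G19370 held 1.54 FPKM in C0, 3.67 in C60C, 15.3 in C120C and 4.42 in C120L. After GRP7 itself, GRP8 was most like AT1G19370 (0.987), XBAT31 (0.979), AT5G27930 (0.977) and ABF1 (0.976), a transcription factor of abscisic acid signalling. XBAT31 held 20.3 FPKM in C0, 172 in C120C and 70.0 in C120L. TCP2 and XBAT31 each held 1 evening element in the promoter window, and AT1G19370, AT5G27930 and ABF1 none. By Spearman's rho the nearness was lower for several of these: AT5G27930 ranked 334 for GRP7 and 127 for GRP8, AT1G69140 ranked 77 for GRP7, and AT1G19370, ABF1 and XBAT31 ranked 63, 30 and 21 for GRP8. The nearest genes to the others were LEJ1 for CSP1 (0.963), ARAC5 for CSP2 (0.939), AT2G15240 for CSP3 (0.877), XCP2 for CSP4 (0.854) and AT2G46540 for RZ-1A (0.786).

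The evening element was also counted over all analysed genes with a promoter window. Of 377 with at least 1 copy, 26.5% rose in C120C/C0 and 3.71% fell, at a median log2 ratio of 0.18. Of 14228 without a copy, 7.32% rose and 8.64% fell, at a median of -0.09. In C120L/C0 26% of the genes with a copy rose and 12.2% fell, and 12.8% and 17% of those without. The share of risen genes with a copy was thus about as large in light as in the cold, but that without a copy was larger in light. In C120C/C120L 25.7% of the genes with a copy were higher in cold and 11.7% lower, and 13.9% and 14% of those without. The 3 genes with 3 copies were GRP7, AIF1 and BBX8. AIF1 held 3.83 FPKM in C0 and 57.2 in C120C, and BBX8 1.01 and 28.4 FPKM, and all 3 genes stood higher in C120C than in C120L, where AIF1 held 5.67 and BBX8 2.93 FPKM. These shares are a description, with no test.

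Other genes of RNA handling were read from lists. Among 7 relatives of the glycine-rich RNA-binding genes, GR-RBP2, a mitochondrial RNA-binding protein, was the only one that rose in the cold in control plants, by 0.67 on the log2 scale in C120C/C0, from 48.8 to 77.7 FPKM. In C120L/C0, 3 of the 7 rose (13.3% of all analysed genes): GR-RBP2 by 1.32, GR-RBP3 by 1.10 and GR-RBP4 by 0.77. In C120C/C120L these 3 were lower in the cold, at -0.65, -1.27 and -0.78, whereas GRP7 and GRP8 were higher there, at 2.95 and 1.24. In primed plants (P120C/P120L) GR-RBP3 alone of the relatives passed the threshold, at 6.59 FPKM in P120C and 13.2 FPKM in P120L, with GR-RBP4 at -0.55 and GR-RBP2 at 101 FPKM in P120C and 98.9 FPKM in P120L. The median of the 7 relatives was 0.12 in C120C/C0 and 0.54 in C120L/C0, beside -0.09 and -0.07 over all analysed genes. None of the relatives passed the threshold in any P/C comparison, where 2.18% to 6.36% of all analysed genes did.

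Of 7 RNA helicases linked to cold, none passed the threshold in the cold, in control or primed plants, with a median of -0.14 in C120C/C0. Of all analysed genes, 7.8% to 18.5% did in these comparisons. PMH1, a mitochondrial helicase, rose in C120L/C0 by 1.32, as the only one of the list. In P120L/P0, 3 of the 7 rose (15% of all analysed genes), PMH1 by 1.29, PMH2 by 0.69 and STRS2 by 0.63. Of 5 chloroplast ribonucleoproteins, CP29A rose in C120C/C0 by 0.90 and stood at -0.14 in C120L/C0, and the other 4 did not pass in either, with list medians of 0.04 and -0.13. No helicase or chloroplast ribonucleoprotein passed the threshold in P/C, where 2.18% to 6.36% of all analysed genes did.

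Of 11 clock genes, 9 were analysed, since PRR5 (0.11 FPKM in C0) and ELF4 (listed at 0 in C0) were below the filter. In C120C/C0, 6 rose and 2 fell (7.94% and 8.97% of all analysed genes), at a median of 0.87: TOC1 rose by 2.72, GI by 2.55, LUX by 2.39 and ELF3 by 2.29. In C120L/C0, 3 rose and 3 fell (13.3% and 17%), at a median of 0.09, with LUX at 1.88, GI at 1.04, LHY at -3.22 and CCA1 at -1.08. In C120C/C120L, 7 of the 9 were higher in cold and none lower (14.3% and 14.1%), at a median of 1.15. PRR5, a repressor of the clock, reached 339 FPKM in C120C and 7.38 in C120L. In P/C, the clock genes gave 1 call in the cold (ELF3 at 60 min, -0.61) and 1 in light (LUX at 120 min, -1.02). Of all analysed genes, 2.18% to 4.83% passed in P/C in the cold and 3.45% to 6.36% in light. The medians of the clock genes in P30C/C30C and P120C/C120C were -0.02 and 0.00. Against C0, clock genes thus changed in both directions in C120C, with more risen than fallen, and in C120L, while none was lower in C120C/C120L. The part of the clock genes in the levels of GRP7 and GRP8 was not tested. At 30 min of cold, 3 of 5 cold marker genes had risen, beside 4.04% of all analysed genes. CBF1, CBF2 and CBF3, regulators of cold acclimation, stood at 4.70, 5.14 and 5.48, GRP7 at -0.15, GRP8 at 0.09 and CSP1 at 0.30. COR15A and KIN1 (0.44) did not pass the threshold at this time. All 5 markers rose in C120L/C0 (13.3%). In C120C/C120L the 3 CBF genes were higher in cold, and COR15A and KIN1 lower (14.3% and 14.1%). In P0/C0, CBF3 stood at 1.56 and CBF2 at 0.99, where 0.42% of all analysed genes rose. CBF1 stood at 0.57, within the threshold. Each of these ratios sets 1 library against 1 other, and no counting interval is given for them. By qPCR on replicates, the paper saw no priming effect on CBF2 in a cold course of up to 120 min.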

How the data were processed

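The authors enriched mRNA with oligo(dT) beads, sequenced 14 libraries and deposited 1 table of FPKM values of 27861 genes, with no scaling between libraries beyond FPKM. The submitters' processing notes name HISAT2 2.1.0 and the TAIR10 build, and the methods of the paper name Bowtie2 and RSEM. How reads were assigned to overlapping genes is not given in the sources used here. FPKM were used as deposited, without a pseudocount. Depth was estimated from the FPKM steps of single-transcript genes of 200 to 600 bases (length minus 100 bases) at 0 in 2 to 12 libraries, and a gene's fragments from its coding length, which leaves out UTRs. Where UTRs are long, fragments may thus be underestimated and intervals too wide, most of all for RZ-1A. Intervals are exact Clopper-Pearson intervals at 95%. With 1 library per condition no test was run. Likeness is Pearson r of log2(FPKM + 1): the 5 nearest genes are named where the highest level is at least 3 times the lowest, otherwise the nearest. Of each list up to 4 genes with the largest log2 ratios are named. PRR5, ELF4, AIF1 and BBX8 were chosen after their values were seen. The members and lists were chosen with earlier results of these data known. 1 listed relative is not reported here. Sequences came from RefSeq TAIR10.1, whose nuclear chromosomes are those of TAIR10. The scripts (Python 3.11.15, NumPy 2.4.6, pandas 2.3.3, SciPy 1.17.1, Biopython 1.88, matplotlib 3.10.9) were tested on simulated data. Alternatives were a threshold of 2-fold, a pseudocount of 1 FPKM, 2 scalings, 2 filters on the mean, each group's own start, and 2 other measures of likeness.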

Additional observations from a re-analysis of the deposited data

Results flagged for a closer look

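In primed plants, the log2 ratio of CSP2 to P0 was above 0 at every time of cold (0.13, 0.13 and 0.08 at 30, 60 and 120 min) and below 0 at every time of high light (-0.11, -0.19 and -0.30). All 6 values lie within the 1.5-fold threshold, and the counting intervals of P60C/P0 (0.998 to 1.19), P120C/P0 (0.963 to 1.16) and P30L/P0 (0.849 to 1.01) include 1. These intervals rest on coding lengths and may be too wide. In control plants at 30 min the signs were the other way, at -0.08 in cold and 0.09 in light. The difference was not tested, since each value is 1 library against the same P0 library.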

How the results depend on the processing

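No gene that passed 1.5-fold changed direction under the alternatives run, but none could have done so, and no conclusion is drawn from this. The stricter threshold and the filters leave each ratio as it is, and a pseudocount cannot turn its sign. The scaling factors lay between -0.12 and 0.18 on the log2 scale, too close together to reverse a 1.5-fold change. P0/C0 of the 7 genes lay within 1.5-fold, so that each group's own start could not reverse one either. With a threshold of 2-fold, the genes that passed were 0 in C30C/C0, P30C/P0, P30C/C30C, C30C/C30L and P30C/P30L, 1 in C60C/C0 and P60C/P60L, 2 in C120C/C0 and P120C/P0 (each without CSP1) and 3 in C120L/C0 (without RZ-1A). With a pseudocount of 1 FPKM, CSP4 was lost in C30C/C0 (0 left) and P30C/C30C (1 left), and RZ-1A in C120L/C0 (3 left). Scaling by the 8 reference genes, which moved the median gene by up to 0.18 on the log2 scale (P120L), lost CSP4 in C30C/C0 (0 left) and RZ-1A in C120L/C0 (3 left), and gained CSP1 in C60C/C0 (3), CSP2 in C60C/C60L (2) and CSP2 in P120C/P120L (3). Scaling by the median ratio, where the largest shift was -0.12 (C30C), exchanged CSP4 for RZ-1A in C30C/C0, and gained CSP1 in C60C/C0 (3) and in P60L/P0 (1). A mean of at least 10 FPKM, which leaves out CSP4 and RZ-1A, gave 0 in C30C/C0, 1 in P30C/C30C, 0 in C30C/C30L and 3 in C120L/C0. From each group's own start, 1 gene passed in P30C/C30C, where 8.03% of the analysed genes then did. The cause of these moves was not tested, except that the stricter threshold and filter pass fewer genes by construction. By Spearman rho, the likeness was 0.948 for LEJ1 and CSP1, 0.943 for AT1G19370 and GRP7, and 0.938 for GRP7 and GRP8. By Pearson r over the 7 control libraries, it was 0.930 for ARAC5 and CSP2, 0.904 for AT2G15240 and CSP3, 0.933 for XCP2 and CSP4, and 0.709 for AT2G46540 and RZ-1A. In these cases the nearest gene was no longer among the 5 nearest. No paired analysis was possible because the groups compared share only 1 replicate number. A pairing of primed with control plants across triggers and times was not run.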
